A study of Mus musculus with 12 samples.

Results

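A set of 10 genes that mark the birth of new granule neurons was followed in hippocampal RNA-seq: *Eomes* for progenitors, *Mki67* and *Top2a* for dividing cells, and *Igfbpl1*, *Dcx*, *Neurod1*, *Sox11*, *Sox4*, *Draxin* and *Calb2* for young granule neurons. They were taken by symbol, and all 10 were found among the 55385 genes of the count table. The 12 libraries came from adult mice of 4 genotypes, with 3 libraries each: Kcnip3 KO-5xFAD (*Kcnip3* -/- with the 5xFAD transgenes), 5xFAD, Kcnip3 KO (*Kcnip3* -/-) and WT. *Kcnip3* encodes KChIP3, a calcium-binding protein also known as DREAM or calsenilin. The 5xFAD mouse carries mutant human transgenes under neuronal *Thy1* sequences and develops amyloid plaques. The labels name no agent, and state neither age in numbers, sex nor strain. RNA came from freshly dissected hippocampus, with the opposite hemisphere used for proteomics, and libraries were made with a poly(A) kit. The labels do not say that the 3 libraries of a genotype are separate animals, so the p-values measure the spread between libraries only.

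In the adult mouse hippocampus, radial glia-like stem cells in the subgranular zone of the dentate gyrus give rise to intermediate progenitors, which divide and produce neuroblasts and then granule neurons. *Eomes* (Tbr2) is a T-box transcription factor of the intermediate progenitors, and *Mki67* and *Top2a* encode a chromosome-coating protein and a topoisomerase of dividing cells. *Sox4*, *Sox11* and *Neurod1* encode transcription factors of early neuronal differentiation, *Dcx* a microtubule-binding protein of migrating neuroblasts, and *Calb2* calretinin, which young granule neurons carry for a short time. Several of these genes are active elsewhere as well: *Eomes* in glutamatergic neurons of the olfactory bulb, *Dcx* in neuroblasts bound for that bulb, and *Calb2* in interneurons, mouse mossy cells and Cajal-Retzius cells. In bulk tissue, fewer cells of a type and less RNA per cell cannot be told apart.

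The promoters of 4 genes are shown as examples: *Mki67* and *Top2a* for dividing cells, *Eomes* for progenitors and *Dcx* for young granule neurons. Each is the 250 bases before the RefSeq start on GRCm38.p6, written 5′ to 3′ on the gene's strand, with each CCAAT (the CCAAT box) and each TTTGAA (the cell cycle homology region, a repressor element of cell cycle genes) in capitals, on either strand. The windows are chr7:135716380-135716629 on the minus strand for *Mki67*, chr11:99024190-99024439 on the minus strand for *Top2a*, chr9:118477939-118478188 on the plus strand for *Eomes* and chrX:143933220-143933469 on the minus strand for *Dcx*.
Mki67: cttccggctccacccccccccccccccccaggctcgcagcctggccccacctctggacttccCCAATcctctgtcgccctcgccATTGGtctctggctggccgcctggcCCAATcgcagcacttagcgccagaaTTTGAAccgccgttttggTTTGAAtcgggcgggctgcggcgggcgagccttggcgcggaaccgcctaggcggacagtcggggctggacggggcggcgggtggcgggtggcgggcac
Top2a: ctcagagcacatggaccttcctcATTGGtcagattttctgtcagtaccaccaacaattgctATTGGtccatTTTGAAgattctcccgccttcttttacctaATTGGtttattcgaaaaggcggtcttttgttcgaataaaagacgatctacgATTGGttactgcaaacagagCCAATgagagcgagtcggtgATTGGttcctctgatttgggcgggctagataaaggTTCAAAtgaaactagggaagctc
Eomes: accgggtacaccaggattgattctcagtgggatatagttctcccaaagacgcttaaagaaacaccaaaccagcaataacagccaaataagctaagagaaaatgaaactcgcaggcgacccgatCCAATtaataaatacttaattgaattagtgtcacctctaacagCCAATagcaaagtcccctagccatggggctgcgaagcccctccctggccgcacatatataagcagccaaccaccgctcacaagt
Dcx: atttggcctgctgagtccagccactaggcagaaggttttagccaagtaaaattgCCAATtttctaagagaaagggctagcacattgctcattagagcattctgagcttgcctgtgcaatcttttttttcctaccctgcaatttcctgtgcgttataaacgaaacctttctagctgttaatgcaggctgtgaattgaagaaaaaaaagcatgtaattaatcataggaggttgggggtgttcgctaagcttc

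*Mki67* held 3 CCAAT and 2 TTTGAA matches and *Top2a* 6 CCAAT and 2 TTTGAA matches, with the nearest TTTGAA starting 98 and 23 bases upstream of the start. *Eomes* held 2 CCAAT matches and *Dcx* 1 in the window shown, and neither held TTTGAA. The other *Dcx* window held no match to either. These elements did not separate division markers from the rest: *Sox4* held 4 CCAAT matches, and *Sox11* 1 CCAAT and 1 TTTGAA match. RefSeq windows were found for 8 of the 10 genes, 9 windows in all because *Dcx* has 2 starts. A CCAAT was present in 6 of those 9 windows and in 33.8% of 32851 RefSeq promoter windows of the same length, and a TTTGAA in 3 of 9, *Sox11* being the last, and in 16.0%. At least 3 CCAAT matches, as in *Mki67*, *Top2a* and *Sox4*, were present in 2.79% of all windows. The NeuroD and neurogenin E-box CAGATG was absent from all 9 windows, against 14.4% of all windows. GTCA, the core of the site to which KChIP3 binds, was present in 4 of 9 windows, those of *Eomes*, *Top2a*, *Sox11* and *Sox4*, and in 80.2% of all windows. In *Top2a* a GTCA shared its first base with a CCAAT match on the other strand. A match is a description of letters and not a site.

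The libraries held 7664407 to 11310714 counts, so that 3 counts corresponded to 0.272 to 0.425 CPM (reads per 1e+06 counted, after edgeR's TMM scaling). The deleted gene *Kcnip3* had 68.7 to 84.9 CPM in Kcnip3 KO-5xFAD, against 138 to 156 CPM in 5xFAD. Kcnip3 KO libraries had 63.4, 71.4 and 125 CPM of it, against 158 to 162 CPM in WT. *Thy1*, whose sequences the 5xFAD transgenes carry, went against the labels in 2 libraries. It had 926 CPM in the library labelled Kcnip3 KO-5xFAD 2, against 2590 and 3380 CPM in the other two of that genotype, and 2280 CPM in the library labelled WT 3, against 747 and 887 CPM in the other two WT libraries. A list of 11 microglial markers summed to 496 CPM in that Kcnip3 KO-5xFAD library, against 1377 and 1103 CPM in the other two, and to 724 CPM in that WT library, against 408 and 423 CPM. Values without these 2 libraries stand beside the results below for the 8 genes with enough counts for the test. Markers of hippocampal pyramidal neurons summed to between 775 and 1140 CPM and those of mature granule neurons to between 591 and 913 CPM in all 12 libraries. Choroid plexus and ependymal markers ranged far more widely, with sums of 129 to 9040 CPM.

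Compared per length, in the authors' deposited TPM, all but *Calb2* were rare transcripts. *Calb2* averaged 189 TPM in Kcnip3 KO-5xFAD, 87.9 TPM in 5xFAD, 96.5 TPM in Kcnip3 KO and 105 TPM in WT. In WT libraries the order of mean levels was then *Neurod1* at 7.93 TPM, *Sox4* at 6.25 TPM, *Sox11* at 5.92 TPM, *Dcx* at 5.08 TPM, *Eomes* at 2.05 TPM, *Igfbpl1* at 1.48 TPM and *Mki67* at 0.393 TPM. At 0 counts in 5xFAD 2 the deposited values still gave 0.152 TPM for *Eomes* and 0.194 TPM for *Igfbpl1*, so the lowest TPM may be overstated. *Top2a* and *Draxin* are not in the deposited TPM table, and had only 73 and 65 counts over all 12 libraries. The values below are CPM, which allow comparison of one gene between libraries but not between genes. The plot of levels by library shows all 10 genes.

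**Figure D1:**
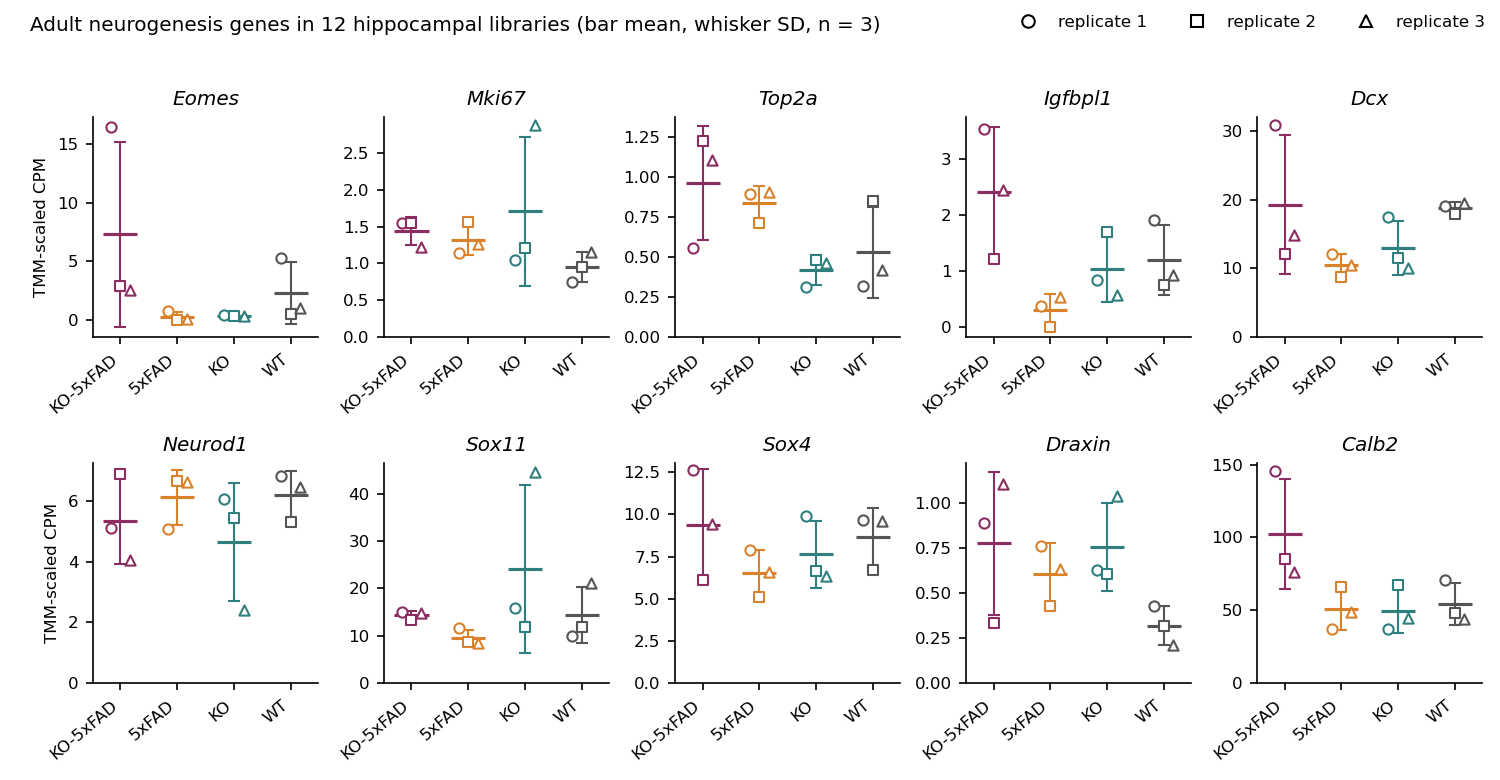
TMM-scaled CPM (vertical axis, one scale per gene) of the 10 genes in 12 libraries, with each point a library, the bar the mean and the whisker the SD of the 3 libraries of a genotype; KO stands for Kcnip3 KO. One Kcnip3 KO-5xFAD library is the highest for *Eomes* (16.4 CPM), *Igfbpl1*, *Dcx*, *Sox4* and *Calb2*, and one Kcnip3 KO library for *Mki67* and *Sox11* (44.5 CPM).

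Levels of *Eomes*, *Igfbpl1*, *Dcx*, *Sox11* and *Calb2* were higher in every Kcnip3 KO-5xFAD library than in any 5xFAD library, as were those of 9.05% of tested genes. *Calb2* averaged 102 ± 37.7 CPM in Kcnip3 KO-5xFAD against 50.6 ± 14.2 CPM in 5xFAD, and *Dcx* 10.5 ± 1.64 CPM in 5xFAD against 18.8 ± 0.797 CPM in WT (SD, n = 3 each). *Neurod1* and *Sox4* overlapped between all genotypes. None of the 10 genes passed an adjusted p of 0.05 in any comparison by edgeR's quasi-likelihood test, in which 8 of the 10 had enough counts to enter. In Kcnip3 KO-5xFAD against 5xFAD, 0 of 10 were called, where 0.0692% of 15905 genes were, and 4 had an unadjusted p under 0.05, where 10.4% of genes did. Kcnip3 KO-5xFAD against Kcnip3 KO also gave 0 calls among the 10, with 3 unadjusted, where 0% of genes were called and 1657 (10.4%) had an unadjusted p under 0.05. In 5xFAD against WT, the comparison with most calls (3.53% of genes), 0 of 10 were called and 3 had an unadjusted p under 0.05, against 25.3% of genes. Kcnip3 KO against WT gave 0 calls and 0 unadjusted among the 10, where 0.0503% of genes were called and 4.51% unadjusted. For Kcnip3 KO-5xFAD against WT, 0 were called and 1 unadjusted, where 0.044% of genes were called and 8.25% unadjusted. The interaction, which tests whether the 5xFAD effect differs with and without *Kcnip3*, gave 0 calls and 4 unadjusted among the 10, where 0% of genes were called and 836 (5.26%) unadjusted. DESeq2 called 1 of the 10 in 1 comparison (*Calb2*, Kcnip3 KO-5xFAD against Kcnip3 KO), and limma-voom and limma on the deposited log2 TPM called 0 in all 6. Of the genes to which it gave an adjusted p, DESeq2 called 10.4% in 5xFAD against WT, 0.866% in Kcnip3 KO-5xFAD against Kcnip3 KO, 0.182% in each other comparison of 2 genotypes and 0.0377% in the interaction. Both limma fits called 0 genes in Kcnip3 KO-5xFAD against Kcnip3 KO and in the interaction. In 5xFAD against WT limma-voom called 568 genes and limma on log2 TPM 238. In each remaining comparison they called 7 to 12 and 8 to 13 genes. With no filter on low counts, 31787 genes entered, and calls were more common. Among the 10 there were then 4 calls in Kcnip3 KO-5xFAD against 5xFAD (1.1% of genes), 3 against Kcnip3 KO (2.27%) and 2 against WT (1.75%). The same fit called 4 in 5xFAD against WT (6.7% of genes), 2 in Kcnip3 KO against WT (1.02%) and 4 in the interaction (0.856%). It treated the spread of most genes as fully set by the trend over all genes, with an infinite median of prior degrees of freedom, against 6.3 with the filter. The levels and fold changes below are thus differences that did not pass the test.

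*Eomes*, at chr9:118478212-118486132 on the plus strand, varied most. It had 16.4, 2.89 and 2.58 CPM in Kcnip3 KO-5xFAD libraries 1, 2 and 3, and 0.762, 0 and 0.0905 CPM in 5xFAD. Kcnip3 KO libraries had 0.418, 0.362 and 0.345 CPM, and WT libraries 5.32, 0.532 and 1.04 CPM. All 3 Kcnip3 KO-5xFAD libraries therefore lay above all 5xFAD and all Kcnip3 KO libraries, while the WT libraries overlapped with both Kcnip3 KO-5xFAD and 5xFAD and lay above Kcnip3 KO. As counts, the gene had 195 in Kcnip3 KO-5xFAD, 7 in 5xFAD, 10 in Kcnip3 KO and 65 in WT, summed over 3 libraries, and 148 and 50 of these came from Kcnip3 KO-5xFAD 1 and WT 1. The 0 in 5xFAD 2 allows up to 0.425 CPM, for counting error only. The log2 fold change was 4.68 ± 1.23 (SE) in Kcnip3 KO-5xFAD against 5xFAD (edgeR adjusted p = 0.411) and 4.23 ± 1.15 against Kcnip3 KO (adjusted p = 0.282). For 5xFAD against WT it was -3.01 ± 1.36 (edgeR adjusted p = 0.197) and for Kcnip3 KO against WT -2.56 ± 1.26 (adjusted p = 0.999). Kcnip3 KO-5xFAD against WT gave 1.67 ± 0.88 (edgeR adjusted p = 0.677). With the low counts of 5xFAD and Kcnip3 KO, *Eomes* entered the test because all 3 Kcnip3 KO-5xFAD libraries and WT 1 exceeded 1.11 CPM.

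The libraries in which *Eomes* was highest also held transcripts of the olfactory bulb. A list of 8 bulb markers, chosen after these values had been seen, summed to 207 CPM in Kcnip3 KO-5xFAD 1 and 59.0 CPM in WT 1, and to between 12 and 31 CPM in the other 10 libraries. *Th*, the rate-limiting enzyme of dopamine synthesis, had 50.1 CPM in Kcnip3 KO-5xFAD 1 and 13.9 CPM in WT 1, and 0.905 to 5.56 CPM elsewhere. *Omp*, a protein of olfactory sensory neurons, had 15.4 CPM and 4.89 CPM in those 2 libraries, and 0.272 to 2.19 CPM elsewhere. *Cdhr1* and *Doc2g*, expressed by mitral and tufted cells, had 60.1 and 51.4 CPM in Kcnip3 KO-5xFAD 1 and 16.3 and 15.2 CPM in WT 1, against highest values of 14.0 and 8.24 CPM elsewhere. *Tbx21*, another of the 8, had 4.1 CPM in Kcnip3 KO-5xFAD 1 but 1.17 CPM in WT 1, within the 0.123 to 1.27 CPM of the other 10 libraries. None of the 8 markers was at 0 in either library. The other two Kcnip3 KO-5xFAD libraries had bulb marker sums of 25.2 and 16.7 CPM, within the range of the rest, and their *Eomes* levels of 2.89 and 2.58 CPM were still above those of every library but Kcnip3 KO-5xFAD 1 and WT 1. Without Kcnip3 KO-5xFAD 1 and WT 1, the *Eomes* log2 fold change was 3.26 ± 0.67 in Kcnip3 KO-5xFAD against 5xFAD, 2.82 ± 0.63 against Kcnip3 KO, -1.49 ± 0.80 in 5xFAD against WT and -1.04 ± 0.76 in Kcnip3 KO against WT. Without the 2 libraries that went against their labels, those values were 5.06, 4.61, -3.36 and -2.91. The part of bulb tissue in the *Eomes* difference was not tested.

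**Figure D2:**
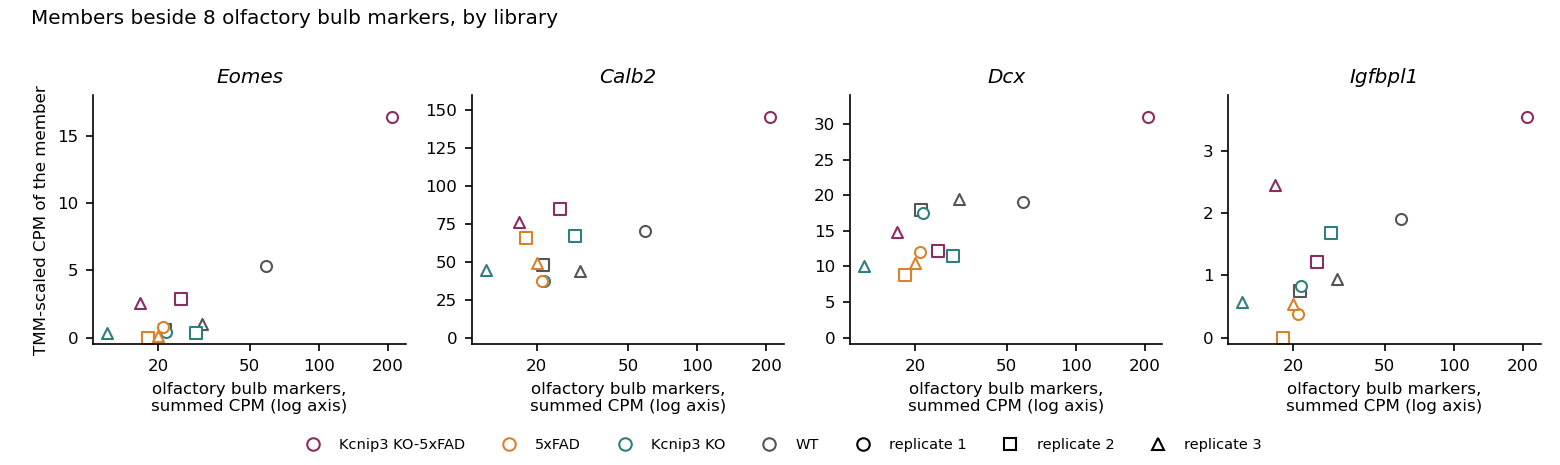
TMM-scaled CPM of *Eomes*, *Calb2*, *Dcx* and *Igfbpl1* (vertical axes) against the summed CPM of 8 olfactory bulb markers (horizontal log axis), with each point a library. Kcnip3 KO-5xFAD 1 stands at 207 CPM and WT 1 at 59.0 CPM of bulb markers, and the other 10 libraries lie at 12 to 31 CPM.

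The division markers were close to the detection limit. *Mki67*, at chr7:135689784-135716361 on the minus strand, had 1.55, 1.56 and 1.23 CPM in Kcnip3 KO-5xFAD, 1.14, 1.56 and 1.27 CPM in 5xFAD, 1.05, 1.21 and 2.88 CPM in Kcnip3 KO, and 0.744, 0.957 and 1.15 CPM in WT, from 144 counts in all. Its Kcnip3 KO-5xFAD libraries lay above all WT libraries, and every other pair of genotypes overlapped. Log2 fold changes were 0.14 ± 0.40 in Kcnip3 KO-5xFAD against 5xFAD, 0.46 ± 0.42 in 5xFAD against WT and 0.83 ± 0.41 in Kcnip3 KO against WT, and 0.24 without Kcnip3 KO 3. Without the 2 libraries against their labels these 3 values were 0.08, 0.62 and 0.99. *Top2a*, at chr11:98992943-99024189 on the minus strand, had 0.554, 1.22 and 1.11 CPM in Kcnip3 KO-5xFAD, 0.889, 0.709 and 0.905 CPM in 5xFAD, 0.314, 0.483 and 0.460 CPM in Kcnip3 KO, and 0.319, 0.851 and 0.418 CPM in WT. Kcnip3 KO-5xFAD lay above Kcnip3 KO in all libraries, with a log2 fold change of 1.18 ± 0.61 in the fit without a filter on low counts, from 25 and 11 counts. Neither gene was called in any comparison by edgeR, with or without that filter.

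The genes of young granule neurons did not share 1 pattern over the libraries. *Igfbpl1*, *Dcx*, *Sox4* and *Calb2* were highest in Kcnip3 KO-5xFAD 1, as *Eomes* was, and *Sox11* was highest in Kcnip3 KO 3.

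*Igfbpl1*, at chr4:45809468-45826923 on the minus strand, encodes an insulin-like growth factor binding protein-like factor found in neuroblasts. It had 3.55, 1.22 and 2.46 CPM in Kcnip3 KO-5xFAD, 0.381, 0 and 0.543 CPM in 5xFAD, 0.837, 1.69 and 0.575 CPM in Kcnip3 KO, and 1.91, 0.744 and 0.940 CPM in WT. All 5xFAD libraries lay below all WT and below all Kcnip3 KO-5xFAD libraries, and the 0 in 5xFAD 2 again allows up to 0.425 CPM. These levels rest on 63 counts in Kcnip3 KO-5xFAD, 9 in 5xFAD, 27 in Kcnip3 KO and 34 in WT. The log2 fold change was 2.78 ± 0.66 in Kcnip3 KO-5xFAD against 5xFAD (edgeR adjusted p = 0.323) and -1.78 ± 0.71 in 5xFAD against WT (adjusted p = 0.144). Without Kcnip3 KO-5xFAD 1 and WT 1 these were 2.38 ± 0.69 and -1.28 ± 0.77, and without the 2 libraries against their labels 3.1 and -1.92. Kcnip3 KO against WT gave -0.22 ± 0.59, 0.28 without Kcnip3 KO-5xFAD 1 and WT 1, 0.06 without Kcnip3 KO 3 and -0.37 without the libraries against their labels. Like *Eomes*, *Igfbpl1* exceeded 1.11 CPM in all 3 Kcnip3 KO-5xFAD libraries and in only 1 WT and 1 Kcnip3 KO library.

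*Dcx*, at chrX:143855842-143933311 on the minus strand, was deep enough for firmer values, with 1666 counts. It had 30.9, 12.11 and 14.9 CPM in Kcnip3 KO-5xFAD, 12.07, 8.79 and 10.5 CPM in 5xFAD, 17.5, 11.5 and 10.01 CPM in Kcnip3 KO, and 19.0, 18.0 and 19.5 CPM in WT. Both single mutants lay wholly below WT, whose libraries differed least. In 5xFAD the mean was 10.5 ± 1.64 CPM against 18.8 ± 0.797 CPM in WT (SD, n = 3 each), a log2 fold change of -0.85 ± 0.31 (edgeR adjusted p = 0.12). Fitted on 5xFAD and WT alone, this difference passed the threshold (edgeR adjusted p = 0.0259; 0.000441 to 0.435 over 25 alternative settings). The value was -0.84 ± 0.23 without Kcnip3 KO-5xFAD 1 and WT 1 and -0.82 without the libraries against their labels, but -0.46 with a correction for gene length and GC content (edgeR adjusted p = 0.435). Kcnip3 KO gave -0.53 ± 0.30 against WT (edgeR adjusted p = 0.999), and -0.38 without Kcnip3 KO 3. The difference between Kcnip3 KO-5xFAD and 5xFAD, 0.88 ± 0.31 (edgeR adjusted p = 0.438), rested mainly on 1 library: without Kcnip3 KO-5xFAD 1 it was 0.36, and 1.13 without the libraries against their labels. Without that library the difference from Kcnip3 KO was 0.05, in place of 0.57 ± 0.30. A list of 9 markers of the neuroblasts of the subventricular zone, the other source of *Dcx*, summed to 316 to 631 CPM in Kcnip3 KO-5xFAD, the highest in Kcnip3 KO-5xFAD 1, and to 264 to 319 CPM in 5xFAD, 378 to 426 CPM in Kcnip3 KO and 357 to 455 CPM in WT. Most of each sum was *Gad1*, which all GABAergic neurons express, at 221 to 408 CPM in Kcnip3 KO-5xFAD, 174 to 212 CPM in 5xFAD, 283 to 328 CPM in Kcnip3 KO and 248 to 310 CPM in WT. The other 8 markers (*Dlx* and *Sp* genes among them) summed to 91.3 to 223 CPM in Kcnip3 KO-5xFAD, 84.6 to 107 CPM in 5xFAD, 95.2 to 107 CPM in Kcnip3 KO and 109 to 144 CPM in WT. All 9 were at lower mean level in 5xFAD than in WT, as were 7688 of the 15905 genes tested. The median log2 fold change of the 9 was -0.52. Of the 9, 0 were called by edgeR (3.53% of genes) and 2 had an unadjusted p under 0.05 (25.3% of genes). DESeq2 called 1 of the 9, *Gad1* (10.4% of genes). Their part in the *Dcx* difference was not tested.

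*Calb2*, at chr8:110137502-110168210 on the minus strand, had the most counts of the 10, 6824 in all. Its level was 145, 85.0 and 76.0 CPM in Kcnip3 KO-5xFAD, 37.3, 65.7 and 48.9 CPM in 5xFAD, 37.2, 67.2 and 44.7 CPM in Kcnip3 KO, and 70.5, 47.9 and 43.8 CPM in WT. All 3 Kcnip3 KO-5xFAD libraries exceeded all 9 others, which overlapped among themselves. The log2 fold change of Kcnip3 KO-5xFAD was 1.02 ± 0.32 against 5xFAD (edgeR adjusted p = 0.428), 1.04 ± 0.32 against Kcnip3 KO (adjusted p = 0.307) and 0.92 ± 0.31 against WT (adjusted p = 0.534). DESeq2 called the second of these, with 1.03 at an adjusted p of 0.0352; over the 25 alternatives the adjusted p ran from 2.17e-13 to 0.889. Without Kcnip3 KO-5xFAD 1 and WT 1 the fold changes were 0.67 ± 0.25 against 5xFAD, 0.70 ± 0.25 against Kcnip3 KO and 0.81 ± 0.28 against WT. Without the libraries against their labels they were 1.13, 1.16 and 0.90. Neither single mutant differed from WT by more than its error, at -0.10 ± 0.32 in 5xFAD and -0.12 ± 0.32 in Kcnip3 KO, and at -0.23 and -0.26 without the libraries against their labels. In the marker sums of interneurons, mossy cells and Cajal-Retzius cells, which also carry calretinin, the Kcnip3 KO-5xFAD libraries did not all exceed the others. The 7 other markers of calretinin interneurons (*Vip* and *Penk* among them) summed to 472 to 591 CPM in Kcnip3 KO-5xFAD, 507 to 669 CPM in 5xFAD, 500 to 551 CPM in Kcnip3 KO and 503 to 578 CPM in WT. The 7 other mossy cell markers summed to 256 to 287 CPM in Kcnip3 KO-5xFAD, 272 to 390 CPM in 5xFAD, 216 to 247 CPM in Kcnip3 KO and 237 to 281 CPM in WT, most of it the widely expressed *Ap2s1*. Without *Ap2s1* the sums were 36.1 to 46.2 CPM in Kcnip3 KO-5xFAD, 32.5 to 39.7 CPM in 5xFAD, 25.9 to 40.5 CPM in Kcnip3 KO and 28.4 to 37.3 CPM in WT. With *Calb2* included, 8 of 8 mossy cell markers had a higher mean in Kcnip3 KO-5xFAD than in WT (median log2 fold change 0.33). The same held for 8268 of 15905 genes. Against Kcnip3 KO, 6 of 8 were higher (0.42), as were 7924 of 15905 genes. By edgeR 0 were called in either (0.044% and 0% of genes). An unadjusted p under 0.05 was found for 2 and 3, *Calb2* among both (8.25% and 10.4% of genes). DESeq2 called 0 and 1 (*Calb2*), and 0.182% and 0.866% of genes. A list of 5 Cajal-Retzius markers, also chosen after the values were seen, summed to 62.2 to 85.7 CPM in Kcnip3 KO-5xFAD, 51.7 to 56.0 CPM in 5xFAD, 60.4 to 88.5 CPM in Kcnip3 KO and 71.8 to 85.1 CPM in WT. The 7 other markers of a thalamus list that holds *Calb2* summed to 113 to 152 CPM in Kcnip3 KO-5xFAD and 76.7 to 215 CPM in 5xFAD. They summed to 110 to 324 CPM in Kcnip3 KO and 102 to 198 CPM in WT. The library with the highest *Calb2*, Kcnip3 KO-5xFAD 1, also had the highest sum of olfactory bulb markers, 207 CPM, against 25.2 and 16.7 CPM in Kcnip3 KO-5xFAD 2 and 3. The part of these cells and tissues in the *Calb2* level was not tested.

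**Figure D3:**
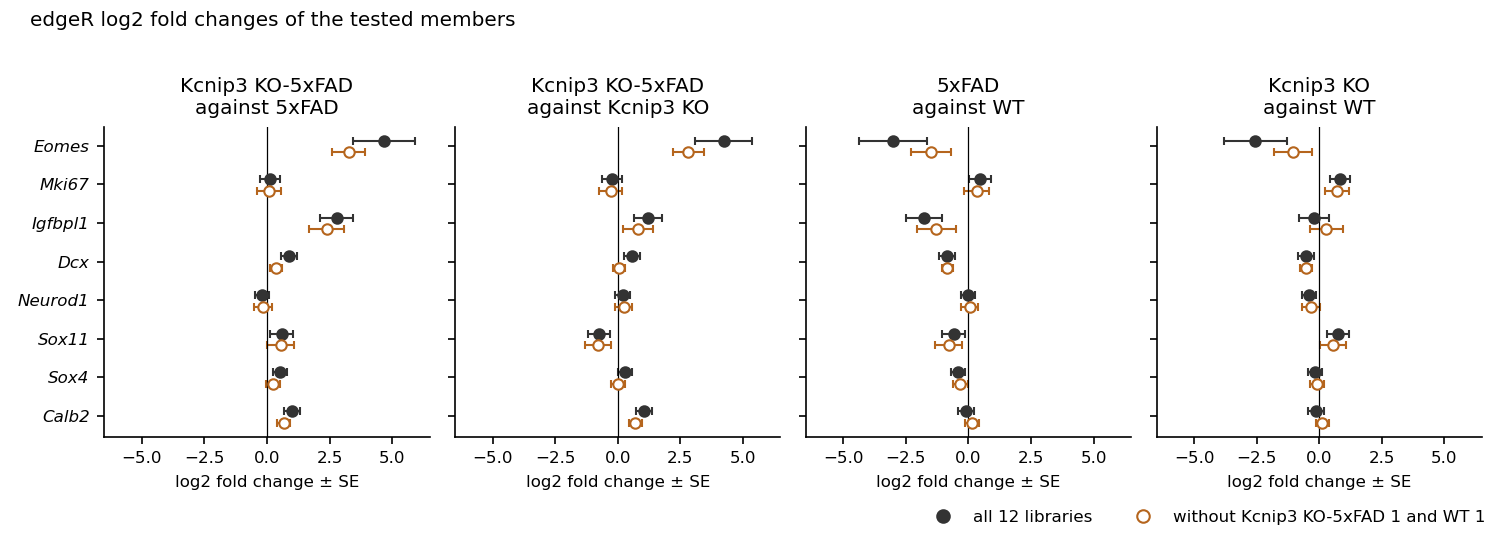
Log2 fold changes (horizontal axes) with SE from edgeR for the 8 genes with enough counts, in 4 comparisons, with filled points for all 12 libraries and open points without Kcnip3 KO-5xFAD 1 and WT 1. *Dcx* in Kcnip3 KO-5xFAD against 5xFAD lies at 0.88 with all libraries and at 0.36 without those 2, while *Eomes* and *Igfbpl1* keep log2 fold changes above 2 (3.26 and 2.38).

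*Sox11* and *Sox4* encode related transcription factors that switch on neuronal genes as progenitors leave the cell cycle. *Sox11*, at chr12:27334264-27342574 on the minus strand, had 15.0, 13.2 and 14.7 CPM in Kcnip3 KO-5xFAD, 11.6, 8.65 and 8.42 CPM in 5xFAD, 15.9, 11.8 and 44.5 CPM in Kcnip3 KO, and 9.996, 11.9 and 21.1 CPM in WT. The Kcnip3 KO-5xFAD libraries lay above all 5xFAD libraries, with a log2 fold change of 0.59 ± 0.47 (edgeR adjusted p = 0.648). The Kcnip3 KO libraries also lay above all 5xFAD libraries and overlapped with Kcnip3 KO-5xFAD and WT. Kcnip3 KO against WT gave 0.75 ± 0.44, and -0.05 without Kcnip3 KO 3. Kcnip3 KO-5xFAD against Kcnip3 KO gave -0.75 ± 0.44, and 0.04 without Kcnip3 KO 3. In 5xFAD against WT the log2 fold change of *Sox11* was -0.59 ± 0.46. Without the 2 libraries against their labels it was -0.20, and 1.14 in Kcnip3 KO against WT. *Sox4*, at chr13:28948919-28953713 on the minus strand, had 12.6, 6.11 and 9.45 CPM in Kcnip3 KO-5xFAD, 7.87, 5.11 and 6.61 CPM in 5xFAD, 9.93, 6.64 and 6.33 CPM in Kcnip3 KO, and 9.68, 6.70 and 9.61 CPM in WT. All 4 genotypes overlapped, and the fold change furthest from 0 was 0.52 ± 0.28, in Kcnip3 KO-5xFAD against 5xFAD, and 0.24 without Kcnip3 KO-5xFAD 1 and WT 1. Without the 2 libraries against their labels it was 0.76.

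*Neurod1*, a basic helix-loop-helix factor needed for the survival of new granule neurons, lies at chr2:79452521-79456751 on the minus strand. It had 5.10, 6.89 and 4.05 CPM in Kcnip3 KO-5xFAD, 5.08, 6.67 and 6.61 CPM in 5xFAD, 6.06, 5.44 and 2.42 CPM in Kcnip3 KO, and 6.81, 5.32 and 6.48 CPM in WT. All 4 genotypes overlapped, and log2 fold changes ran from -0.41 ± 0.29 in Kcnip3 KO against WT (-0.11 without Kcnip3 KO 3) to 0.20 in Kcnip3 KO-5xFAD against Kcnip3 KO. Without the libraries against their labels these 2 values were -0.38 and -0.02. Its locus overlaps *Cerkl* on the same strand, which had 83 counts in all against 601 for *Neurod1*.

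*Draxin*, a secreted axon repellent, lies at chr4:148098437-148130698 on the minus strand. It had 0.887, 0.333 and 1.11 CPM in Kcnip3 KO-5xFAD, 0.762, 0.425 and 0.634 CPM in 5xFAD, 0.627, 0.604 and 1.04 CPM in Kcnip3 KO, and 0.425, 0.319 and 0.209 CPM in WT. The Kcnip3 KO libraries exceeded all WT libraries, while the lowest 5xFAD and the highest WT library were level, with 3 and 4 counts. The sums were 16 counts in 5xFAD and 20 in Kcnip3 KO, against 9 in WT. Fold changes from the fit without a filter were 0.94 ± 0.68 in 5xFAD and 1.21 ± 0.66 in Kcnip3 KO, neither called (edgeR adjusted p = 0.609 and 0.93). The span of *Draxin* overlaps that of *Mad2l2* on the other strand, which had 1354 counts. With the strand setting of the counting not given, reads from any stretch shared by both genes cannot be told apart. Whether their exons overlap was not examined.

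Counted over all 10 genes, 5 lay wholly above 5xFAD in Kcnip3 KO-5xFAD (*Eomes*, *Igfbpl1*, *Dcx*, *Sox11* and *Calb2*) and none below, where 9.05% of tested genes lay above and 7.29% below. For *Dcx* the nearest libraries were at 12.11 CPM in Kcnip3 KO-5xFAD and 12.07 CPM in 5xFAD. Both *Eomes* and *Igfbpl1* entered the test through their high Kcnip3 KO-5xFAD levels. Against Kcnip3 KO, 3 of 10 lay above in Kcnip3 KO-5xFAD (*Eomes*, *Top2a* and *Calb2*; 8.37% of genes) and none below (7.25%), and against WT 2 of 10 (*Mki67* and *Calb2*; 7.05%) and none below (7.29%). In 5xFAD against WT, 1 lay above (*Draxin*, whose nearest libraries both had 0.425 CPM; 13.7%) and 2 below (*Igfbpl1* and *Dcx*; 13.9%). In Kcnip3 KO against WT, 1 lay above (*Draxin*; 4.58%) and 2 below (*Eomes* and *Dcx*; 4.89%). The comparisons with 5xFAD as a common group, and those with WT or Kcnip3 KO-5xFAD, share libraries and are not independent of one another. With *Top2a* and *Draxin* from the fit without a filter, the median log2 fold change over the 10 was 0.55 in Kcnip3 KO-5xFAD against 5xFAD, -0.25 in 5xFAD against WT and -0.20 in Kcnip3 KO against WT, beside medians of 0.00, 0.01 and 0.00 over all genes tested. Over the 8 that entered the test these medians were 0.74, -0.50 and -0.20.

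Kcnip3 KO 3 stood apart in *Sox11*, *Mki67* and *Neurod1*, and lay within the range of the other 11 libraries in the other 7 genes. It had 44.5 CPM of *Sox11* against 8.42 to 21.1 CPM in the other 11 libraries, 2.88 CPM of *Mki67* against 0.744 to 1.56 CPM, and 2.42 CPM of *Neurod1* against 4.05 to 6.89 CPM. The deleted gene also differed there: *Kcnip3* had 125 CPM in this library, 63.4 and 71.4 CPM in the other two Kcnip3 KO libraries, and 158 to 162 CPM in WT. The same library had the highest levels of slow activity-induced transcripts. *Nptx2*, a synaptic pentraxin, had 342 CPM there against 33.6 to 76.9 CPM in the other 11 libraries. *Bdnf*, a neurotrophin of the neurogenic niche, had 62.8 CPM against 15.7 to 28.5 CPM, and *Npy*, a neuropeptide, 178 CPM against 42.8 to 64.5 CPM. *Inhba*, *Pcdh8* and *Sorcs3* were also highest there, at 23.0, 168 and 90.3 CPM. The immediate early genes were not: *Fos* had 15.5 CPM, *Arc* 378 CPM and *Egr1* 84.6 CPM, each within the range of the others (7.66 to 54.2, 102 to 477 and 62.8 to 224 CPM). These 9 genes were listed after the values had been seen. The part of these differences in its *Sox11*, *Mki67* and *Neurod1* levels was not tested.

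**Figure D4:**
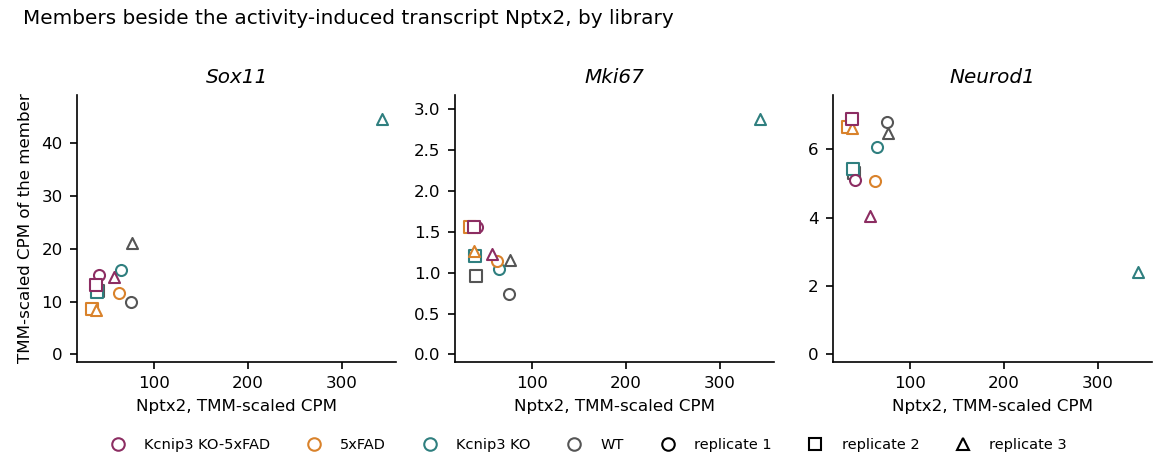
TMM-scaled CPM of *Sox11*, *Mki67* and *Neurod1* (vertical axes) against that of *Nptx2* (horizontal axis), with each point a library. Kcnip3 KO 3, at 342 CPM of *Nptx2*, has the highest *Sox11* (44.5 CPM) and *Mki67* (2.88 CPM) and the lowest *Neurod1* (2.42 CPM), and the other 11 libraries lie at 33.6 to 76.9 CPM of *Nptx2*.

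The wider neurogenic programme was described with lists that include the 10 genes. By edgeR, calls among them were made in 5xFAD against WT only, where 1.91% of all genes rose and 1.62% fell. Of 18 neural stem cell genes, 17 were tested and 1 rose: *Thbs4*, a thrombospondin of astrocytes and stem cells, to 39.8 ± 11.2 CPM in 5xFAD against 14.9 ± 2.25 CPM in WT (SD, n = 3 each; log2 fold change 1.42 ± 0.33, edgeR adjusted p = 0.0446). Astrocyte markers summed to 6450 to 7570 CPM in 5xFAD against 4270 to 5030 CPM in WT, and their part in the *Thbs4* difference was not tested. Of 13 intermediate progenitor genes, 10 were tested and 1 fell: *Elavl2*, a neuronal RNA-binding protein, to 16.9 ± 3.53 CPM in 5xFAD against 27.9 ± 5.22 CPM in WT (-0.73 ± 0.16, edgeR adjusted p = 0.0363). Among 29 neuroblast and immature neuron genes, 28 were tested and 1 fell, *Rgs4*, a regulator of G-protein signalling that mature neurons also express, to 108 ± 30.2 CPM in 5xFAD against 198 ± 28.1 CPM in WT (-0.88 ± 0.21, edgeR adjusted p = 0.0438). Of 23 niche signals, 21 were tested and 2 rose, *Tgfb1* to 17.9 ± 5.07 CPM in 5xFAD against 6.47 ± 1.79 CPM in WT (1.46 ± 0.34, edgeR adjusted p = 0.0401) and *Igf1* to 11 ± 1.15 CPM in 5xFAD against 4.58 ± 1.11 CPM in WT (1.26 ± 0.31, edgeR adjusted p = 0.045). Microglia, which also make *Tgfb1* and *Igf1*, had marker sums of 1357 to 1820 CPM in 5xFAD against 408 to 724 CPM in WT, and their part in these differences was not tested. Of 29 cell division genes 23 were tested, and 0 were called by edgeR or DESeq2 in 5xFAD against WT, with 1 at an unadjusted p under 0.05. Of 15 mature granule neuron genes 0 were called by edgeR, with 4 at an unadjusted p under 0.05 and 2 called by DESeq2 (*C1ql3* and *Il16*). Of all genes, 25.3% had an unadjusted p under 0.05 by edgeR here, and DESeq2 called 10.4%. In the other lists DESeq2 called the genes that edgeR called, and also *Vim* (stem cell), *Btg2* and *Mfng* (intermediate progenitor), *Stmn1* (neuroblast) and *Reln* (niche). Of these, limma-voom also called *Mfng*. Without the 2 libraries against their labels, *Tgfb1* and *Igf1* were still called and *Thbs4*, *Elavl2* and *Rgs4* were not, in a fit that called 209 genes in all. Without Kcnip3 KO-5xFAD 1 and WT 1, 0 of these lists' genes were called, and only 5 genes in all. The number of genes called in 5xFAD against WT turned on single libraries: it was 562 with all 12, 1 without WT 1, without 5xFAD 2 or without 5xFAD 3, and 13 without WT 3. In other comparisons DESeq2 called *Fabp7*, *Thbs4*, *Igf1*, *Vegfa* and *Calb2* in Kcnip3 KO-5xFAD against Kcnip3 KO, *Fabp7* against 5xFAD, *Pcna* against WT, *Btg2* and *Pcna* in Kcnip3 KO against WT, and *Fabp7* in the interaction.

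In 5xFAD against WT the median log2 fold change was 0.14 for stem cell genes, 0.05 for intermediate progenitor genes, 0.09 for cell division genes, -0.07 for neuroblast and immature neuron genes and 0.21 for mature granule neuron genes, beside 0.01 for all genes tested. In Kcnip3 KO-5xFAD against 5xFAD these medians were 0.02, 0.22, -0.01, 0.09 and 0.19, beside 0.00, and in Kcnip3 KO against WT 0.00, -0.13, -0.14, 0.02 and 0.22, beside 0.00. They lay further from 0 in Kcnip3 KO-5xFAD against Kcnip3 KO for intermediate progenitor genes (0.39, with 9 of 10 higher) and mature granule neuron genes (0.31, with 12 of 15 higher). The other lists had 0.14, 0.08 and 0.04 there, and all genes 0.00, with 7924 of 15905 higher. In Kcnip3 KO-5xFAD against WT the medians were 0.14, 0.17, 0.08, 0.09 and 0.35, beside 0.01. Single genes with the smallest p in the lists did not pass. *Fabp7*, a fatty acid binding protein of radial glia and astrocytes, had 58.4 ± 18.1 CPM in Kcnip3 KO-5xFAD against 26.7 ± 4.57 CPM in 5xFAD (log2 fold change 1.13 ± 0.22, edgeR adjusted p = 0.153). DESeq2 called it, as did edgeR without the 2 libraries against their labels, but not edgeR without Kcnip3 KO-5xFAD 1 and WT 1. It had 22.5 ± 4.90 CPM in Kcnip3 KO against 35.8 ± 2.47 CPM in WT. *Pcna*, the sliding clamp of DNA replication, which is also used in repair, had 29.4 ± 1.56 CPM in Kcnip3 KO against 44.1 ± 2.53 CPM in WT (-0.58 ± 0.10, edgeR adjusted p = 0.0849), which DESeq2 called. *Pcna* lies on chromosome 2, as *Kcnip3* does. In the transgenic pair it had 31.9 ± 3.35 CPM in Kcnip3 KO-5xFAD against 43.4 ± 1.59 CPM in 5xFAD (-0.44 ± 0.10, edgeR adjusted p = 0.29).

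For the 8 genes with a mean of at least 1 CPM, the tested gene whose log2 CPM followed each most closely was found over the 12 libraries. *Dcx* was most like *Gng4*, a G-protein gamma subunit (Pearson r = 0.949, Spearman rho = 0.874 over 12 libraries), and *Sox4* most like *Greb1l* (r = 0.958, rho = 0.958), both highest in Kcnip3 KO-5xFAD 1. *Calb2* was most like *Fam181b* (r = 0.93, rho = 0.797), *Eomes* most like *Eya4* (r = 0.925, rho = 0.895) and *Igfbpl1* most like *Odr4* (r = 0.928, rho = 0.923), all of them highest in that library too. For *Sox11* the nearest was *Ubn1* (r = 0.963, rho = 0.874) and for *Mki67* *Scrt2* (r = 0.944, rho = 0.86), both highest in Kcnip3 KO 3. *Neurod1* had the loosest match, *Cyb5d2* (r = 0.852, rho = 0.608), which was highest in 5xFAD 2, while *Neurod1* was highest in Kcnip3 KO-5xFAD 2. These correlations describe 12 libraries that share genotype, depth and the 2 libraries that stand apart, and the nearest genes were picked from 15905.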

How the data were processed

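Per the labels' protocols, hippocampal total RNA was extracted with Trizol and sequenced from TruSeq mRNA libraries. Per the submitters' processing notes, reads were handled with HISAT2 2.1.0 and FastQC 0.11.9 on mm10, with featureCounts, edgeR 3.38.4 and R 4.2.1 also listed. Neither strand setting nor annotation release was found among the sources used here. The deposited main table holds the authors' raw read counts per Ensembl gene. A second deposited table holds log2 TPM values, which served for levels between genes and for 1 alternative.

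Counts were tested in edgeR 4.0.16 (R 4.3.3) with TMM scaling, filterByExpr by genotype (15905 genes kept) and the robust quasi-likelihood test, in 1 fit of all 12 libraries with a coefficient per genotype. P-values were adjusted over all genes tested by the Benjamini-Hochberg method, and a call means an adjusted p under 0.05. Common dispersion corresponded to a biological coefficient of variation of 0.144. The CPM values printed are TMM-scaled. *Top2a* and *Draxin* did not pass the filter and have fold changes from a fit without it. Library totals were 7664407 to 11310714, and limits from 0 counts (3 counts) describe counting error alone, because without molecular identifiers reads may be copies of 1 molecule. Alternatives used DESeq2 1.42.0, limma 3.58.1, other scalings, filters, a replicate block, length and GC offsets, and left-out libraries. Scripts were tested on simulated counts.

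Symbols and positions came from GENCODE M21 on GRCm38, where 55144 of 55385 gene IDs matched. Promoters are from RefSeq. The 10 genes and all lists were chosen with earlier results of these data known. Named were the 10 genes everywhere, from each list up to 4 called genes per comparison or at most 2 uncalled with the smallest p (a selection of these is printed), and the most correlated genes with a mean of at least 1 CPM. The olfactory bulb, Cajal-Retzius and activity-induced lists, and the genes named from them, were chosen after the values were seen.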

Additional observations from a re-analysis of the deposited data

Results flagged for a closer look

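Flagged were 4 of the 10 genes, which met 2 conditions. The mean effect of 1 allele had opposite signs with and without the other. Each library also lay on that side of the mean of the group it was compared with. The groups themselves could still overlap, and how many of all genes tested split this way was not counted. Every 5xFAD library lay below the WT mean of *Eomes* (mean change -2.01 CPM) and every Kcnip3 KO-5xFAD library above the Kcnip3 KO mean (6.92 CPM). That WT mean, 2.3 CPM, rested mainly on WT 1 at 5.32 CPM, and WT 2 at 0.532 CPM lay below 5xFAD 1 at 0.762 CPM. Seen along the other axis, every Kcnip3 KO-5xFAD library lay above the 5xFAD mean (7.01 CPM) and every Kcnip3 KO library below the WT mean (-1.92 CPM). The interaction was 7.24 ± 1.77 on the log2 scale and did not pass (edgeR adjusted p = 0.853), and it was 4.30 without Kcnip3 KO-5xFAD 1 and WT 1. For *Igfbpl1* the 5xFAD effect was 1.37 CPM on the *Kcnip3* knockout and -0.891 CPM with *Kcnip3* intact, with an interaction of 3.00 ± 0.90 (edgeR adjusted p = 0.853), and 2.1 without those 2 libraries. For *Mki67* it was -0.265 CPM on the knockout and 0.373 CPM with *Kcnip3* intact, with an interaction of -0.69 ± 0.57 (edgeR adjusted p = 0.855). This rested on Kcnip3 KO 3: without it Kcnip3 KO-5xFAD against Kcnip3 KO was 0.36 in place of -0.23 on the log2 scale, and the interaction -0.10. For *Dcx* the knockout effect was 8.85 CPM among 5xFAD carriers and -5.86 CPM without the transgenes, with an interaction of 1.42 ± 0.43 (edgeR adjusted p = 0.853), and 0.89 without Kcnip3 KO-5xFAD 1 and WT 1. Means of opposite sign were also seen in *Calb2*, *Sox4*, *Neurod1* and *Top2a*, whose libraries did not all split this way. *Calb2* had an interaction of 1.14 ± 0.45 (edgeR adjusted p = 0.853). Of the 15905 genes tested, 0 passed the interaction test in edgeR, 836 had an unadjusted p under 0.05, and DESeq2 called 6, none of them among the 10.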

How the results depend on the processing

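No gene of the 10 was called in any comparison, and counts of calls changed under few of the alternatives. With no filter on low counts the calls were 4 in 5xFAD against WT, 2 in Kcnip3 KO against WT, 4 in Kcnip3 KO-5xFAD against 5xFAD, 3 against Kcnip3 KO, 2 against WT and 4 in the interaction. Fitting the compared groups alone gave 1 call in 5xFAD against WT (*Dcx*), of 383 genes called in all. DESeq2 gave 1 in Kcnip3 KO-5xFAD against Kcnip3 KO (*Calb2*), of 135 genes called in all. Leaving out each library in turn gave 0 to 1 calls in 5xFAD against WT and 0 in each other comparison. The 1 was *Dcx* without Kcnip3 KO-5xFAD 1 (edgeR adjusted p = 0.0406), in a fit that called 441 genes in all. The fit of the compared groups alone gives no interaction.

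With the replicate number as a block the calls were 2 in 5xFAD against WT (*Eomes* and *Dcx*), 1 in Kcnip3 KO-5xFAD against 5xFAD and 1 in the interaction (both *Eomes*), and 0 elsewhere. Over all genes that fit called 1234, 10 and 1 in these 3 comparisons. Block with length and GC correction gave 1, 1 and 1 among the 10, and 113, 10 and 1 over all genes. Over 18 same-numbered pairs the deviations from the genotype means correlated at -0.33 to 0.253, and 6 exceeded 0.1. Pairs of unlike number were not compared, so whether the numbers pair the libraries cannot be decided from these values.

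Of the fold changes under the alternatives, 1089 kept their sign and side of the threshold, 29 passed it and 50 changed sign, the last mostly in values whose main fold change was within its error of 0. Without Kcnip3 KO-5xFAD 1 and WT 1 these were, for 5xFAD against WT, *Neurod1* 0.05 and *Calb2* 0.14, for Kcnip3 KO against WT *Igfbpl1* 0.28 and *Calb2* 0.11, for Kcnip3 KO-5xFAD against WT *Dcx* -0.48 and *Sox4* -0.07, and for the interaction *Sox11* 0.01. Without the libraries against their labels they were *Neurod1* 0.02 in 5xFAD against WT, -0.02 in Kcnip3 KO-5xFAD against Kcnip3 KO and -0.04 in the interaction, and *Sox11* 0.44 in Kcnip3 KO-5xFAD against WT. Length and GC correction gave *Neurod1* 0.09 in 5xFAD against WT, *Mki67* -0.05 in Kcnip3 KO-5xFAD against 5xFAD and *Sox11* 0.05 against WT. For Kcnip3 KO-5xFAD against WT, voom gave *Dcx* -0.08 and *Sox11* 0.07, and log2 TPM -0.15 and 0.01, and for the *Sox11* interaction they gave 0.03 and 0.09. With the block *Dcx* was -0.06 in Kcnip3 KO-5xFAD against WT, and with block and length and GC correction *Sox11* was 0.12 there. With no filter *Neurod1* was 0.00 in 5xFAD against WT. With 1 library left out, the ranges that crossed 0 were, in 5xFAD against WT, *Neurod1* -0.12 to 0.10 and *Calb2* -0.33 to 0.14; in Kcnip3 KO against WT, *Igfbpl1* -0.74 to 0.28, *Sox11* -0.05 to 1.14 and *Calb2* -0.40 to 0.11; in Kcnip3 KO-5xFAD against Kcnip3 KO, *Mki67* -0.50 to 0.36, *Neurod1* -0.10 to 0.45 and *Sox11* -1.07 to 0.04; in Kcnip3 KO-5xFAD against WT, *Dcx* -0.48 to 0.27, *Sox11* -0.21 to 0.38 and *Sox4* -0.16 to 0.34; in the interaction, *Neurod1* -0.09 to 0.47 and *Sox11* -0.55 to 0.63. The cause of these shifts was not tested. On log2 TPM the median of all genes lay at -0.131 in 5xFAD against WT. Depth limits *Eomes*, *Igfbpl1*, *Mki67*, *Top2a* and *Draxin*, which had 65 to 277 counts in all.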
